A study of Mus musculus with 2 samples.

Results

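The plexus endothelium of the yolk sac was examined as 101 barcodes among 1634 kept barcodes, 58 in the wild-type (WT) library and 43 in the Baf155 CKO library. UMIs are unique molecular identifiers, each a counted transcript. A barcode was kept when it had 500 genes or more and no more than 10% of its UMIs from mitochondrial genes, which left 787 WT and 847 CKO barcodes. A member had at least 10 UMIs of Cldn5, Plvap and Ramp2 together and at least 1 UMI in 3 or more of Cldn5, Plvap, Ramp2, Clec14a, Stab2 and Lyve1. Embryonic globins (Hbb-y, Hbb-bh1 and Hba-x) had to be under 5% of UMIs, and Col1a1, Col1a2 and Col3a1 under 10 per 10000 UMIs. Members were thus chosen by the measured UMIs of these genes, and their levels are given as a description. The marker counts alone were met by 58 WT and 50 CKO barcodes. Of these, 0 and 7 were past the collagen limit and 0 and 1 past the globin limit, in part the same barcodes. The limits thus lowered the CKO count only. Members made up 7.37% of kept WT barcodes (95% exact binomial interval 5.64 to 9.42) and 5.08% of kept CKO barcodes (3.70 to 6.78). They held 1061354 and 1379821 UMIs, with a median of 14785 UMIs per WT member and 30165 per CKO member, against 28167 and 28320 over all kept barcodes.

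Both libraries came from yolk sac of the B6 mouse strain, read by droplet-based 5′ single-cell RNA sequencing. For each genotype, equal numbers of embryos at E9.5 and at E10.5 were mixed, and the yolk sacs were treated with 0.25% collagenase for 30 min, frozen, and sorted for live cells without the red cell antigen Ter119. The labels name nuclei, whereas the protocol describes live cells. CKO stands for a conditional knockout of Baf155, the chromatin remodelling subunit encoded by Smarcc1, and the sources do not name the Cre driver, the deleted exon or the number of embryos. With 1 library per genotype no test was possible, and genotype, embryos, stage mixture, sort and library cannot be told apart. Intervals are 95% and cover counting error only, and a ratio is always CKO over WT of CPM (counts per 1000000 UMIs) summed over members, unless another set of barcodes is named.

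The vascular plexus of the yolk sac is a network of thin-walled vessels that carries the first circulation of the embryo and lies beside blood islands. Stabilins (Stab1, Stab2), Lyve1 and the mannose receptor Mrc1 bind hyaluronan, modified proteins and glycans and deliver them to endosomes, a duty best known from sinusoids of liver and from lymphatic vessels. Part of the plexus is haemogenic, which means that endothelial cells there switch on Runx1 and round up into blood progenitors.

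The label fitted most members. Endothelial genes outside the rule were present in both libraries. Pecam1, a platelet and vessel adhesion molecule, stood at 187 and 183 CPM (WT first, then CKO, here and in other pairs of values), the junction cadherin Cdh5 at 319 and 222, the VEGF receptor Kdr at 391 and 304 and the receptor tyrosine kinase Tie1 at 123 and 119. The defining macrophage genes C1qa, C1qb and C1qc gave 0, 0 and 2 UMIs in WT members and 1, 3 and 0 in CKO members, and Ptprc, the pan-leukocyte CD45 gene, 0 and 1. The lymphatic regulator Prox1 had 1 UMI in each library. Summed marker lists of other cell types, WT then CKO, came to 84.8 and 17.4 CPM for visceral endoderm, 25.4 and 122 CPM for mesenchyme, 267 and 293 CPM for erythromyeloid progenitors and 107 and 199 CPM for macrophages. Of the 10 macrophage genes, Csf1r, Cx3cr1, Fcer1g and Tyrobp had UMIs in members of both libraries. UMIs of this list were found in 17 of 58 WT and 19 of 43 CKO members, with up to 29 and 62 in 1 member.

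Since the rule asks for a fixed number of UMIs, deep barcodes with few endothelial transcripts per UMI also entered. Cldn5, Plvap and Ramp2 together ranged from 1.80 to 64.7 per 10000 UMIs over WT members and from 1.65 to 63.4 over CKO members. A split at 15 per 10000, chosen after the values were seen, gave 49 WT and 29 CKO marker-dense members (84.5% and 67.4% of members, intervals 72.6 to 92.7 and 51.5 to 80.9) and 9 WT and 14 CKO marker-sparse members. At 10 to 20 per 10000 there were 2 WT and 4 CKO members, so few cells lay near the split. Marker-dense members were 6.23% (4.64 to 8.15) of kept WT barcodes and 3.42% (2.30 to 4.88) of kept CKO barcodes. All 6 rule genes had a UMI in 46 of 49 WT and 27 of 29 CKO marker-dense members, against 1 of 9 and 1 of 14 marker-sparse ones. At the rule's own edge, the lowest sums were 10, 11 and 11 UMIs in WT and 10, 10 and 10 in CKO. Just outside stood sums of 17, 9 and 8 in WT and 32, 22 and 9 in CKO. The barcodes with 17, 32 and 22 UMIs had fewer than 3 of the 6 genes.

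**Figure D1:**
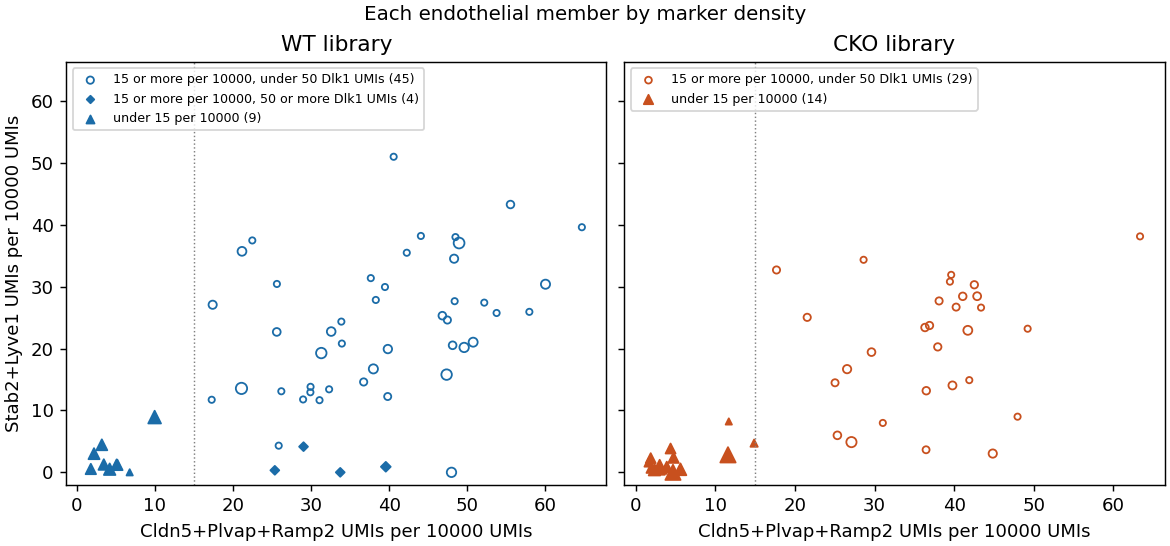
Each point is 1 member of the WT (left) or CKO (right) library, placed by its Cldn5, Plvap and Ramp2 UMIs per 10000 UMIs and by its Stab2 and Lyve1 UMIs per 10000 UMIs. Point size grows with UMIs of 7 blood genes per 10000. The dotted line at 15 separates the marker-dense members from the marker-sparse triangles, which lie low on both axes. Diamonds are 4 WT members with at least 50 Dlk1 UMIs.

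Marker-sparse members carried transcripts of blood progenitors, several of which marker-dense members had at low levels or not at all. Itga2b was an exception. It stood at 33.7 and 44.7 CPM in barcodes with at least 40 UMIs of Cldn5, Plvap and Ramp2, which were mostly marker-dense. In barcodes with 10 to 19 such UMIs it stood at 52.5 and 33.4 CPM. In WT that range held both marker-sparse and marker-dense members, and in both libraries it left out some marker-sparse ones. Itga2b was thus not compared over the split itself. Runx1, the factor that marks haemogenic endothelium, had a UMI in 7 of 9 WT against 14 of 14 CKO marker-sparse members and in 28 of 139 WT and 35 of 207 CKO globin-rich cells. Its level was 102 and 111 CPM in marker-sparse and 5.43 and 3.82 CPM in marker-dense members. Spi1, a myeloid and progenitor factor, stood at 151 and 146 CPM in marker-sparse and 6.79 and 1.27 CPM in marker-dense members. Myb, needed by definitive progenitors, had 7 and 16 UMIs in the marker-sparse and 0 UMIs in the marker-dense members of both libraries. The adhesion receptor gene Gpr56 stood at 222 and 179.9 against 2.72 and 6.37 CPM. For comparison stood kept barcodes outside the members that carried both Ecscr, an endothelial surface gene, and Myb (59 WT and 88 CKO). In them Runx1 came to 123 and 143 CPM and Spi1 to 275 and 195 CPM. Endothelial transcripts were more abundant in marker-sparse members than in that group, with Cdh5 at 64.7 and 72.3 against 12.1 and 16.9 CPM and Pecam1 at 92.4 and 106 against 32.4 and 48.4 CPM. The rule favours such a difference, since members had to hold endothelial UMIs and the other group was taken from outside the members. It is thus a description and does not separate the groups. Etv2, an early driver of endothelial and blood fate, had 21 and 6 UMIs in marker-sparse and 0 and 1 in marker-dense members. At least 3 UMIs of Myb, Ptprc, Spi1, Mpo, Gata1, Klf1 and Itga2b together were found in 8 of 9 WT and 12 of 14 CKO marker-sparse members, and in 3 of 49 and 6 of 29 marker-dense ones. Depth ran with the split: median UMIs were 31728 and 40018 in marker-sparse members and 13027 and 25098 in marker-dense ones. Whether such barcodes held 1 cell or 2 was not tested beyond a doublet caller, which marked none of the 101.

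Lyve1 and Stab2, the hyaluronan receptors of the rule, were the most abundant scavenger receptor genes in UMIs, which count transcripts and need no length correction in 5′ data. Over all members, Lyve1 stood at 1040.2 CPM (interval 979.7 to 1103) in WT against 878 (829 to 929) in CKO, and Stab2 at 344 CPM (interval 309.5 to 381) in WT against 392 (359.7 to 427) in CKO. Lyve1 had a UMI in 54 of 58 WT against 41 of 43 CKO members and Stab2 in 48 of 58 WT against 30 of 43 CKO. Globin-rich cells should lack both and had median depths of 34200 and 34493 UMIs. Lyve1 had a UMI in 1 of 139 WT and 4 of 207 CKO globin-rich cells, and Stab2 in 0 of 139 WT and 5 of 207 CKO globin-rich cells. Among marker-dense members, Lyve1 ran from 0 to 41.6 with a median of 15.7 UMIs per 10000 in WT and from 0 to 29.6 with a median of 14.6 in CKO. Stab2 ran from 0 to 17.0 with a median of 5.48 in WT and from 0 to 17.5 with a median of 6.38 in CKO. The cells of both libraries overlapped over nearly the whole range for both genes. Thinned to 6000 UMIs each, 44 of 49 WT against 28 of 29 CKO marker-dense members had a Lyve1 UMI and 42 of 49 WT against 26 of 29 CKO a Stab2 UMI.

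Receptors that played no part in the rule followed at lower levels. The neonatal Fc receptor Fcgrt stood at 169.6 CPM (interval 146 to 196) in WT against 115 (97.3 to 134) in CKO. Stab1, the other stabilin, stood at 169.6 CPM (interval 146 to 196) in WT against 81.9 (67.5 to 98.5) in CKO, and Mrc1, the mannose receptor, at 167 CPM (interval 143 to 193) in WT against 109 (92.0 to 128) in CKO. In WT the intervals of these 3 genes overlapped, so the counts do not order them. The collectin receptor Colec12 stood at 106 and 109 CPM, the fatty acid and lipoprotein receptor Cd36 at 84.8 and 54.4, the HDL receptor Scarb1 at 79.1 and 68.1 and Scarf1 at 55.6 and 56.5. Scarb1 was also present in the remaining kept barcodes, at 45.4 and 50.03 CPM, whereas Stab1 stood at 4.40 and 1.16 and Cd36 at 2.80 and 0.427 CPM there. Single groups within those barcodes held more of these receptors. Macrophages (46 WT and 16 CKO barcodes with at least 10 C1q UMIs) had Mrc1 at 199 and 75.7 CPM and Fcgrt at 116 and 6.23. Their Stab1 stood at 61.0 and 6.23 CPM and their Cd36 at 33.7 and 0. Stroma, the barcodes past the collagen limit, had Colec12 at 87.0 and 153 CPM. The lysosomal Scarb2 was sparse, with 22 and 27 UMIs. Scarf2, Cd68, Olr1, Megf10, Clec4g, Vldlr and Lrp1 had at most 8 UMIs in a library. Msr1, Marco, Cd163 and Fcgr2b, receptors better known from macrophages and mature sinusoids, had 0 UMIs in the members of both libraries, which allows a share of cells with a UMI of up to 5.17% in WT and 6.98% in CKO.

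**Figure D2:**
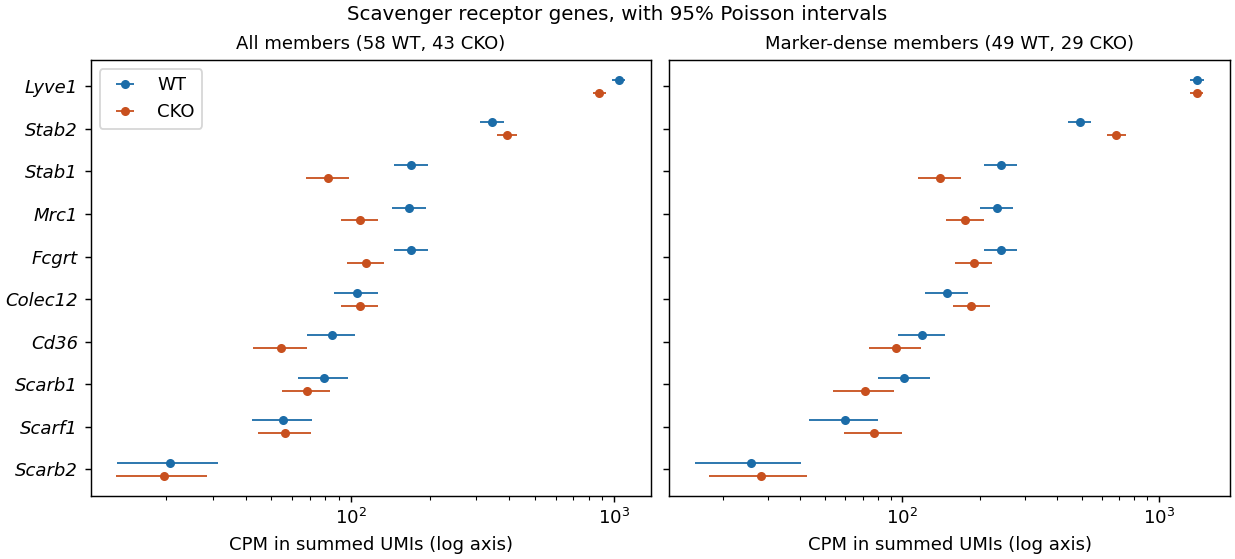
CPM of 10 scavenger receptor genes on a log axis, summed over all members (left) and over marker-dense members (right), with 95% Poisson intervals. Lyve1 and Stab2 lead in both panels. Among all members, Stab1 stands at 169.6 and 81.9 CPM in WT and CKO.

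Many members carried all of the main receptors at once. Stab1, Stab2, Lyve1 and Mrc1 together had UMIs in 40 of 58 WT and 20 of 43 CKO members. Thinned to 6000 UMIs per cell these counts were 32 and 7. Before thinning, 3 WT and 1 CKO members had neither Stab2 nor Lyve1. Across marker-dense cells of 1 library, which share their library and differ in depth, Spearman's rho between Stab2 and Stab1 was 0.65 in WT (n = 49) and 0.29 in CKO (n = 29), and between Stab2 and Mrc1 it was 0.54 and 0.73. Lyve1, the most abundant receptor, gave 0.48 and 0.38 with Stab2, 0.51 and 0.25 with Mrc1 and 0.44 and -0.01 with Stab1. Maf, a transcription factor of sinusoidal endothelium, ran with Gpr182 at 0.73 and 0.56 with Stab2 at 0.63 and 0.45 and with Lyve1 at 0.56 and 0.13. With the summed arterial genes, Maf gave 0.13 and 0.34. The 49 WT cells include 4 Dlk1-high cells, described below, that were low in these receptors, and CKO had 0 such cells. The WT and CKO values thus cover unlike sets, and rho without the 4 cells was not computed. These values describe the cells and carry no test.

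Genes outside the rule that were highest in members over the remaining kept barcodes included genes known from sinusoids and capillaries. Since the members were chosen for neighbouring genes, this is a description. Gpr182, an atypical chemokine receptor of sinusoids and lymphatics, stood at 454 and 397 CPM in members and 0.862 and 0.970 CPM in other barcodes. Oit3, a liver sinusoid gene, stood at 162 and 158 against 0.345 and 0.698 CPM. Gimap4, a GTPase gene, stood at 296 and 156 against 1.98 and 1.59 CPM, the Ras-interacting vessel gene Rasip1 at 177 and 180.5 against 4.01 and 3.57, and the vessel matrix gene Mmrn2 at 111 and 78.3 against 0.604 and 1.12. S100a16 (201 and 143 CPM) and Gap43 (184 and 239.9 CPM), better known from growing axons, completed the 12 genes that led this ranking, with the rule genes Stab2, Clec14a, Cldn5, Lyve1 and Plvap. Machinery for uptake was abundant: the clathrin light chain Clta stood at 1048 and 799 CPM and the adaptor subunit Ap2s1 at 725 and 596 CPM, against 128 and 144 CPM in other barcodes. Gata4, which drives the liver sinusoid programme, had 0 UMIs in members of both libraries. The lipid carriers Fabp5 (1582 and 1944 CPM) and Apoe (1564 and 820.4 CPM) and the imprinted gene Mest (2404 and 1948 CPM) were among the highest members of their lists. Arterial and venous genes were present side by side, with the apelin receptor Aplnr at 187 and 178 CPM, Sox17 at 77.3 and 136 and the connexin Gja4 at 59.4 and 63.1. Gja4 was concentrated in few WT cells: 2 of them held 40 and 16 of its 63 UMIs, and 7 of 58 WT against 21 of 43 CKO members had any, against 0 of 139 WT and 3 of 207 CKO globin-rich cells. Thinned, 5 of 49 WT against 7 of 29 CKO marker-dense members had a UMI.

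A further small group stood out in WT. Members with at least 50 UMIs of Dlk1, an imprinted Notch-family ligand, numbered 4 of 58 in WT (6.90%, 1.91 to 16.7) and 0 of 43 in CKO (0 to 8.22), at a limit chosen after the values were seen. They held 63, 102, 77 and 60 Dlk1 UMIs, 302 of the 316 in WT members, and at most 3 UMIs lay in any CKO member. The same 4 cells held 142, 366, 238 and 155 UMIs of the imprinted cell cycle inhibitor Cdkn1c. All 4 were marker-dense, with 61, 77, 77 and 132 UMIs of Cldn5, Plvap and Ramp2. Their Stab2 counts were 0, 3, 1 and 2 and their Lyve1 counts 0, 8, 0 and 1, at depths of 18079, 26515, 30358 and 33356 UMIs. Summed over cells, Lyve1 stood at 83.1 CPM in the 4 and 1643 CPM in the other 45 marker-dense WT members, Mrc1 at 9.23 against 272, Stab1 at 18.5 against 280.1 and Fcgrt at 9.23 against 282. Igfbp7 and Ehd3, an endosome recycling gene, had 0 UMIs in the 4 cells. In the other direction, the sialomucin Emcn stood at 822 CPM in the 4 and 188 CPM in the other 45, the X-linked placental gene Plac1 at 988 against 167 and the imprinted Peg3 and Meg3 at 840.2 against 115 and 2419 against 554. Dlk1 was also high in stroma (2182 and 2584 CPM), but Emcn was near 0 there (0.542 and 0.143 CPM). These 4 cells thus carried endothelial markers of the rule and few or no UMIs of the scavenger receptors. This was not particular to them. Another marker-dense WT member, with 0 Dlk1 UMIs, had 0 UMIs of Stab2, Lyve1 and Mrc1 and 2 of Stab1. It was the cell with 40 Gja4 UMIs.

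**Figure D3:**
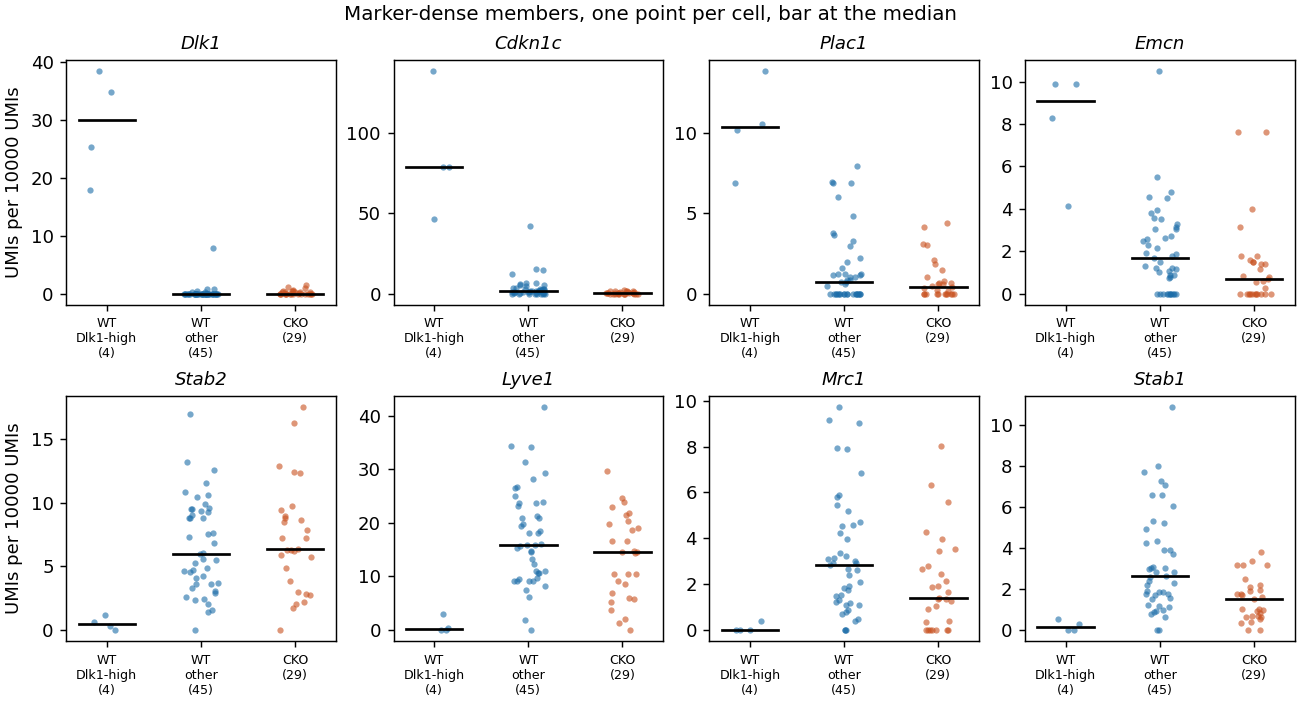
UMIs per 10000 UMIs of 8 genes in each marker-dense member, for the 4 WT members with at least 50 Dlk1 UMIs, the other 45 WT members and the 29 CKO members, with a bar at the median. The 4 cells are highest for Dlk1 and Cdkn1c and among the lowest for Stab2, Lyve1, Mrc1 and Stab1.

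Smarcc1, the targeted gene, was lower in CKO members, as the label CKO states. It had 101 and 16 UMIs, or 95.2 CPM (interval 77.5 to 116) in WT against 11.6 (6.63 to 18.8) in CKO. UMIs were present in 38 of 58 WT against 11 of 43 CKO members, and after thinning in 27 and 2. The ratio was 0.122 (0.0671 to 0.208). Of the 16 CKO UMIs, 11 lay in the 14 marker-sparse members and 5 in the 29 marker-dense ones, where the ratio was 0.0853 (0.0266 to 0.211). In other kept barcodes the ratio was 0.260 (0.237 to 0.284). In members with Xist and no Y-linked UMIs (22 WT and 26 CKO) it was 0.0645, and in members with Y-linked and no Xist UMIs (20 and 14) it was 0.234. Smarcc1 lies on the plus strand of chromosome 9 at 110117708 to 110240178 in GRCm38. Its paralogue Smarcc2 stood at 18.8 CPM in WT against 18.1 in CKO with a ratio of 0.961 (0.513 to 1.83). In members with Xist and no Y-linked UMIs Smarcc2 gave 0.488, and in members with Y-linked and no Xist UMIs it gave 6.09. Both lay outside that interval. The ATPase gene Smarca4 stood at 104 CPM in WT against 123 in CKO with a ratio of 1.19 (0.930 to 1.53).

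Across the transcriptome, genes with 50 UMIs or more in the summed libraries were compared by the size of their ratio, and are called tested genes although no significance test was made. Of 5345 such genes, 125 (2.34%) were at least 2-fold higher in CKO members and 207 (3.87%) at least 2-fold lower, and the median log2 ratio was -0.04. Among marker-dense members these counts were 97 (2.37%) and 180 (4.4%) of 4088 genes. These shares are the background for the counts within gene lists below. Of 17 tested BAF complex genes, none was 2-fold higher and Smarcc1 alone was 2-fold lower, with Smarcd1 next at 0.531 (0.361 to 0.775).

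Cdkn1a, the p53-induced cell cycle inhibitor p21, had the highest ratio, with 13 and 149 UMIs and 12.2 CPM (interval 6.52 to 20.9) in WT against 108 (91.3 to 127) in CKO, a ratio of 8.82 (5.001 to 16.9). It had UMIs in 6 of 58 WT against 17 of 43 CKO members, after thinning in 2 of 49 WT against 10 of 29 CKO marker-dense members, and in 19 of 139 WT and 32 of 207 CKO globin-rich cells. In CKO, 5 cells held 105 of the 149 UMIs, and the highest held 34. In the members with Y-linked and no Xist UMIs the ratio was 3.31. The cyclin gene Ccng1, another p53 target, gave 4.13 (2.51 to 7.14). Thinned, 3 of 49 WT against 7 of 29 CKO marker-dense members had a Ccng1 UMI, against 16 of 58 WT against 34 of 43 CKO of all members unthinned and 56 of 139 WT and 110 of 207 CKO globin-rich cells. Both were also higher in other CKO barcodes, with ratios of 2.32 and 1.47.

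Fabp4, a fatty acid binding protein of capillary endothelium, stood at 55.6 CPM (interval 42.3 to 71.7) in WT against 249 (224 to 277) in CKO, a ratio of 4.48 (3.39 to 6.02). In CKO, 3 cells held 244 of its 344 UMIs, and 15 of 58 WT against 13 of 43 CKO members had any, against 0 of 139 WT and 3 of 207 CKO globin-rich cells. In members with Xist and no Y-linked UMIs its ratio was 1.69. The vasoconstrictor endothelin gene Edn1 stood at 11.3 CPM in WT against 52.9 in CKO, with a ratio of 4.68 (2.52 to 9.47), and at 1.29 and 0.194 CPM in other barcodes. Thinned, 1 of 49 WT against 10 of 29 CKO marker-dense members had an Edn1 UMI, against 7 of 58 WT against 17 of 43 CKO of all members unthinned and 0 of 139 WT and 0 of 207 CKO globin-rich cells. Creatine kinase Ckb gave 6.33 (3.55 to 12.3) over all members and 3.52 (1.83 to 7.31) over marker-dense ones. S100a6 turned around, from 3.25 (2.24 to 4.85) over all members to 0.625 (0.324 to 1.18) over marker-dense ones, and stood at 219 CPM in marker-sparse CKO members. Bscl2 and Zfp36, an mRNA decay factor, gave 3.39 and 3.96.

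Several of the largest ratios lay on the same side of 1 in the other kept barcodes, past 2-fold there too. Atp5g2 gave 4.29 in members and 3.66 in other barcodes, the glycolytic gene Pgk1 3.72 and 3.72, the histone gene Hist1h2ap 6.53 and 4.79, and Nme2 3.15 and 2.26. On the low side, Hnrnpa0 gave 0.247 and 0.236, Ppp4r2 0.256 and 0.357, the methyl-DNA reader Mbd2 0.211 and 0.278, and Cmtm8 0.259 (0.196 to 0.338) and 0.406 (0.350 to 0.470). The Cmtm8 intervals did not overlap. Pgk1 and Nme2 have near-identical copies elsewhere in the genome, so their counts are uncertain.

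**Figure D4:**
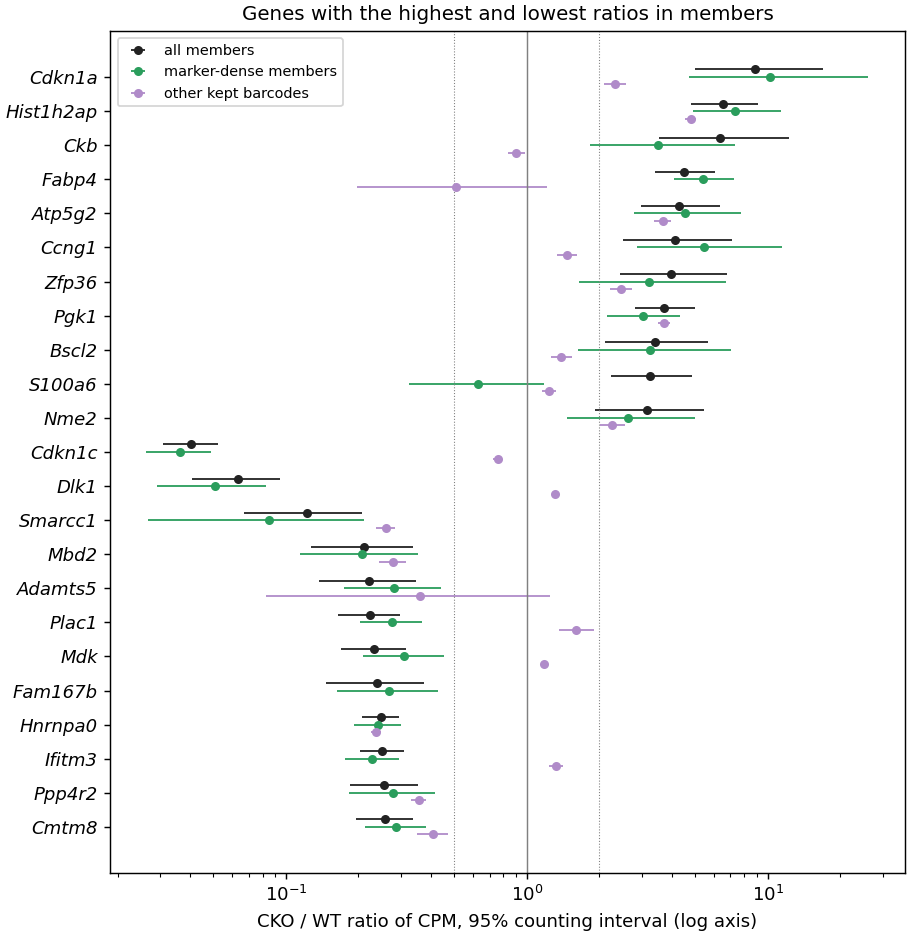
CKO over WT ratios of CPM on a log axis with 95% counting intervals for 11 of the 12 highest and the 12 lowest genes in members, beside the ratio in marker-dense members and in other kept barcodes. Dotted lines mark 2-fold. Ifitm3, Plac1 and Mdk are below 1 in members and above 1 over the summed other barcodes, whereas Pgk1 and Hnrnpa0 have like ratios in both.

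For Ifitm3, Dlk1, Mdk and Plac1 the ratio was below 1 in members and above 1 over all other kept barcodes summed. Among the latter, the barcodes with both Ecscr and Myb UMIs had ratios below 1 as well, with Ifitm3 at 0.573 (0.477 to 0.687), Mdk at 0.420 (0.343 to 0.513) and Dlk1 at 0.742 (0.631 to 0.872), and Plac1 had 5 and 1 UMIs there. Ifitm3, an interferon-induced membrane protein, stood at 355 CPM (interval 320.3 to 393) in WT against 89.1 (74.1 to 106) in CKO with a ratio of 0.251 (0.203 to 0.308) against 1.32 (1.23 to 1.41) in other barcodes. Thinned to 6000 UMIs, 42 of 49 WT against 8 of 29 CKO marker-dense members had a UMI of it, against 54 of 58 WT against 23 of 43 CKO of all members unthinned and 0 of 139 WT and 13 of 207 CKO globin-rich cells. In members with Y-linked and no Xist UMIs its ratio was 0.474. Cdkn1c stood at 1109 CPM in WT against 44.9 in CKO, a ratio of 0.0405 (0.0309 to 0.0523), and 5 WT cells held 85.8% of its WT UMIs. Without the 4 Dlk1-high cells the ratio among marker-dense members was 0.138 (0.0982 to 0.190). Dlk1 itself went from 0.0508 to 1.13, the growth factor Mdk from 0.310 to 0.524 and Plac1 from 0.274 to 0.473 when those cells were left out. Fam167b (79.1 and 18.8 CPM, ratio 0.238, 0.147 to 0.373) and the aggrecan-cleaving protease Adamts5 (84.8 and 18.8 CPM, ratio 0.222, 0.138 to 0.347) stood at no more than 0.431 CPM in other barcodes of either library and gave 0.249 and 0.242 among marker-dense members without those 4 cells. In members with Xist and no Y-linked UMIs Adamts5 gave 0.466.

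Scavenger receptor genes lay on both sides of a ratio of 1. Of 10 tested genes, 0 were at least 2-fold higher and 1 was at least 2-fold lower, with a median log2 ratio of -0.31 beside -0.04 over all tested genes. Stab1 was the lower one at 0.483 (0.378 to 0.614). Mrc1 gave 0.652 (0.521 to 0.815), Cd36 0.641 (0.465 to 0.881) and Fcgrt 0.675 (0.542 to 0.841), all below 1 beyond counting error but short of 2-fold. These ratios moved with the set of members. Without members that had 3 or more UMIs of the 7 blood genes, Mrc1 gave 0.841 and Fcgrt 0.935. Fcgrt gave 0.910 in members with Y-linked and no Xist UMIs. Cd36 gave 1.04 in members with Xist and no Y-linked UMIs. Stab2 gave 1.14 (0.997 to 1.31), Colec12 1.03 (0.801 to 1.33) and Scarf1 1.02 (0.716 to 1.45). Among marker-dense members Stab1 gave 0.580 (0.453 to 0.739) and Stab2 1.39 (1.21 to 1.59), so the stabilins lay on opposite sides of 1. In those cells Stab1 ran from 0 to 10.9 with a median of 2.41 UMIs per 10000 in WT and from 0 to 3.82 with a median of 1.499 in CKO, with wide overlap. Stab1, Mrc1 and Cd36 are also macrophage genes and were lower in other CKO barcodes, with ratios of 0.265, 0.259 and 0.152. Those barcodes held 46 WT and 16 CKO macrophages with at least 10 C1q UMIs. Within these macrophages Stab1 stood at 61.0 and 6.23 CPM, Mrc1 at 199 and 75.7 and Cd36 at 33.7 and 0. What lay behind the lower ratios in other barcodes was not tested. C1qa, C1qb and C1qc had 0, 0 and 0 UMIs in marker-dense WT members and 0, 2 and 0 in marker-dense CKO members.

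Among 30 tested endocytosis and lysosome genes, 0 were 2-fold higher and 2 were 2-fold lower, with a median log2 ratio of -0.12. These were Ehd3 at 0.339 (0.243 to 0.468) and the caveolar coat gene Sdpr at 0.474 (0.380 to 0.588), while clathrin and AP-2 genes such as Clta (0.763) and Ap2m1 (1.13) stayed within 1.5-fold. In 9 tested sinusoidal genes, Ehd3 and Maf were 2-fold lower and none was 2-fold higher. Maf stood at 317 CPM (interval 284 to 352) in WT against 124 (106 to 144) in CKO, with a ratio of 0.391 (0.324 to 0.472) over members and 0.462 (0.380 to 0.560) over marker-dense ones. In marker-dense cells it ran from 0 to 16.3 with a median of 4.95 UMIs per 10000 in WT and from 0 to 5.06 with a median of 2.13 in CKO. Maf was lower in other CKO barcodes too, at 0.210. Gpr182 and Oit3 gave 0.875 (0.772 to 0.990) and 0.975 (0.795 to 1.20).

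Of 23 tested general endothelial surface genes, 18 had a ratio below 1 over all members, beside 2883 of all 5345 tested genes. Among marker-dense members the count was 13 of 23, beside 2079 of 4088. Emcn alone passed 2-fold in both sets, and the median log2 ratio was -0.20 over all members and -0.10 over marker-dense ones. Emcn stood at 203 CPM (interval 176 to 232) in WT against 68.1 (55.1 to 83.4) in CKO, with a ratio of 0.336 (0.261 to 0.430) over members and 0.583 (0.436 to 0.777) over marker-dense ones without the Dlk1-high cells. Among 22 transcription factors, Maf and Meis2 (0.462, 0.372 to 0.572) were 2-fold lower and none was 2-fold higher, and Sox17 gave 1.75 (1.35 to 2.30) and the blood and vessel factor Lmo2 1.87 (1.54 to 2.27). Sox17 was far higher in other CKO barcodes than in other WT ones (1.25 and 18.6 CPM). Of 13 junction and diaphragm genes, the afadin gene (listed as Mllt4) at 0.268 (0.179 to 0.394), the connexin Gja1 at 0.417 (0.283 to 0.607) and Gjc1 at 0.276 (0.138 to 0.520) were 2-fold lower. The share over all tested genes was 3.87%. In marker-dense members Mllt4 and Gjc1 kept a ratio under 0.5 and Gja1 gave 0.548.

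In the VEGF, angiopoietin and apelin list, 13 of 15 tested genes were below 1, beside 2883 of all 5345. Among marker-dense members it was 8 of 12, beside 2079 of 4088. Over all members 3 of the list were 2-fold lower, beside 3.87% of all tested genes. The list's median log2 ratio was -0.42, and -0.17 over marker-dense members. The 3 were the lymphatic and venous receptor Flt4 at 0.484 (0.306 to 0.758), the tip cell proteoglycan Esm1 at 0.455 (0.323 to 0.636) and the ligand Vegfb at 0.462 (0.266 to 0.784). None of them passed 2-fold among marker-dense members, where Flt4 gave 0.577, Esm1 0.547 and Vegfb 0.508. The receptors Kdr, Flt1 and Nrp1 gave 0.777, 0.672 and 0.677. Of 16 basement membrane and matrix genes, fibronectin (Fn1, 0.433, 0.352 to 0.532), Igfbp7 (0.469, 0.367 to 0.597) and biglycan (Bgn, 0.495, 0.336 to 0.724) were 2-fold lower and none was 2-fold higher. Of all tested genes, 3.87% were 2-fold lower and 2.34% higher. The list median was -0.38. Among marker-dense members the median was -0.15, Fn1 alone was 2-fold lower, Igfbp7 and Bgn gave 0.524 and 0.604, and the collagen gene Col15a1 was 2-fold higher at 2.11 (1.14 to 4.07). Notch genes (4 tested) and arterial genes (7 tested) held none past 2-fold in either direction, with Notch1 at 0.580 (0.387 to 0.865). The arterial median of 0.09 moved with the setting: it was 0.85 without members that had 3 or more UMIs of the 7 blood genes, 0.91 after thinning and 1.34 in members with Y-linked and no Xist UMIs. Over marker-dense members, however, it was -0.02, and -0.25 when the Dlk1-high cells were also left out. Gja4 gave 1.06 (0.759 to 1.49), with 40 and 16 of its 63 WT UMIs in the pair of WT cells named above. Of 15 imprinted growth genes, Dlk1, Cdkn1c and Peg3 (0.332, 0.249 to 0.440) were 2-fold lower, and all 3 were high in the 4 Dlk1-high cells, while Mest, Gnas and H19 gave 0.811, 1.22 and 0.818.

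Of 29 gene lists, p53 targets had the highest median log2 ratio over members, 0.59 over 13 tested genes, with 4 at least 2-fold higher and 1 at least 2-fold lower. Over all tested genes 2.34% were 2-fold higher and 3.87% lower. Besides Cdkn1a and Ccng1, the p53 ligase Mdm2 gave 2.34 (1.46 to 3.88) and the death gene Bbc3 2.12 (1.25 to 3.73), while the death receptor Fas gave 0.491 (0.278 to 0.852). Among marker-dense members Cdkn1a, Ccng1 and Ckap2 were the 2-fold higher genes of 10 tested, and Mdm2 (15 and 34 UMIs, ratio 2.13, 1.13 to 4.202) and Bbc3 (8 and 17 UMIs, ratio 1.99, 0.815 to 5.34) had under 50 UMIs and were not tested. Thinned, 2 of 49 WT against 2 of 29 CKO marker-dense members had a Bbc3 UMI. Bax (1.05) and Trp53 (1.22) were near 1. Over marker-dense members the median was 0.69, and in other kept barcodes it was 0.49. In members with Y-linked and no Xist UMIs (20 WT and 14 CKO) the median was -0.01, and in those with Xist and no Y-linked UMIs (22 and 26) it was 0.57. Per marker-dense cell, UMIs of the summed list ran from 5.43 to 24.9 with a median of 9.15 per 10000 in WT and from 7.39 to 38.2 with a median of 13.2 in CKO, so the ranges overlapped.

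Immediate early genes, which cells also switch on during dissociation, had a median of 0.31 over 14 tested genes and 0.69 over 11 in marker-dense members. Fos gave 2.64 (1.97 to 3.57) over all members and 4.93 (3.36 to 7.43) over marker-dense ones, and 1.56 in other barcodes. Jun, the most abundant of them at 541 and 591 CPM, gave 1.09 (0.980 to 1.22). Of 13 heat shock genes 1 was 2-fold higher, Hspb1 at 2.20 (1.68 to 2.92), against 0.526 (0.494 to 0.561) in other barcodes. Glycolysis and hypoxia genes had 4 of 17 at least 2-fold higher (Pgk1, Slc2a3, Egln3 and Ankrd37) and none 2-fold lower, beside 2.34% and 3.87% of all tested genes. Among marker-dense members 1 of 12 tested genes, Pgk1, was 2-fold higher. There Slc2a3, Egln3 and Ankrd37 had under 50 UMIs, with ratios of 2.64 (1.29 to 5.83), 3.19 (1.54 to 7.24) and 2.06 (0.938 to 4.88). The list's median over all members of 0.35 was close to the 0.34 of other kept barcodes. Gapdh gave 1.85 (1.74 to 1.98) in members and 1.25 in other barcodes.

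Proliferation genes differed little over all members and more over marker-dense ones. The median log2 ratio of S phase genes was 0.04 over 29 tested genes and 0.36 over 25 in marker-dense members, beside -0.18 in other barcodes. MYC and ribosome biogenesis genes gave 0.11, 0.45 and -0.34 in the same order, with the chaperonin Hspe1 at 1.49 (1.32 to 1.68) and Npm1 at 1.33 (1.24 to 1.43) in marker-dense members. Genes of G2 and mitosis gave -0.01 and -0.11. Ube2c, which marks mitotic cells, stood at 559 CPM (interval 515 to 606) in WT against 648 (606 to 692) in CKO over all members. In S phase and in G2 and mitosis lists no gene of marker-dense members was 2-fold higher, and Kif23 and Ckap2l were 2-fold lower.

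**Figure D5:**
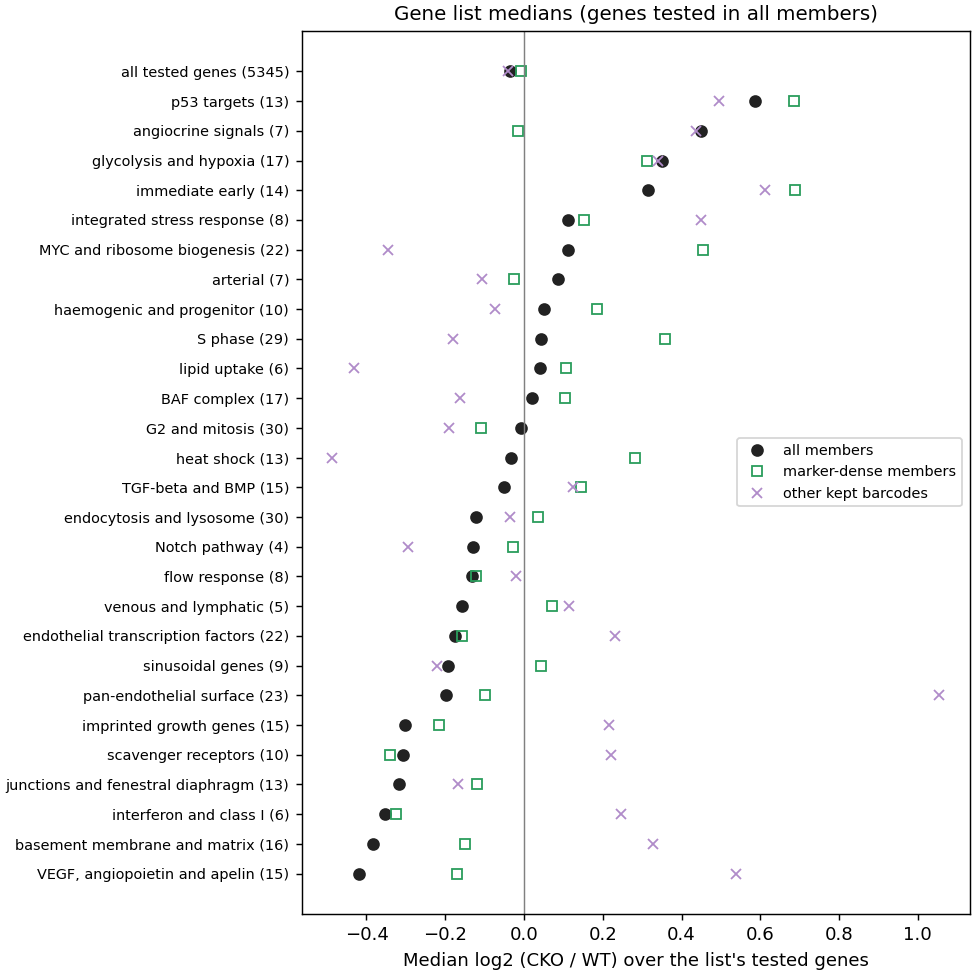
Median log2 CKO over WT ratio of each list of 4 or more tested genes over all members, marker-dense members and other kept barcodes, with the number of genes tested in all members in parentheses. All tested genes lie at -0.04 in members. The VEGF list lies at -0.42 and the p53 targets at 0.59.

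Transcripts of other cell types also differed between the libraries within members. Hbb-y, an embryonic globin, was found at 0 to 12 UMIs per WT member with a median of 4, and at 8 to 79 UMIs per CKO member with a median of 35. The CPM was 212 and 1191. Stroma, which should also lack it, had medians of 3 and 24 UMIs. The collagen genes Col1a1 and Col3a1 had 4 and 22 and 1 and 26 UMIs in WT and CKO members, and the visceral endoderm list came to 84.8 and 17.4 CPM. Apoe, which endoderm also makes, gave 0.525 (0.486 to 0.566) in members and 0.313 in other barcodes, and in globin-rich cells it stood at 5.10 and 7.98 CPM. Their part in the differences above was not tested.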

How the data were processed

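Per the labels, 1 WT and 1 Baf155 CKO yolk sac library of droplet single-cell RNA-seq were deposited as gene by barcode matrices of whole-number UMI counts, made by the authors with Cell Ranger against GRCm38, with Seurat also named, per the submitters' processing notes. No versions are named there. From these counts, with no normalization before filtering, barcodes were kept and members chosen as the report describes, and 33456 rows were summed to 33347 symbols (71 symbols had several rows). Lists used current and older symbols. Members' UMIs were summed per library and divided by the summed total for CPM. CPM carry exact Poisson intervals, ratios conditional exact binomial intervals and shares of cells Clopper-Pearson intervals, all at 95%. The log2 ratios behind medians had 0.5 CPM added to each level, and single ratios and counts had none. A gene was tested at 50 UMIs or more in the summed libraries and called at 2-fold.

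No replicate exists, so no p-value was computed. Totals were 1061354 UMIs in WT and 1379821 in CKO members, so at 50 UMIs counting error alone is wide. Libraries shared 1 barcode, of no member. Scrublet (in scanpy 1.11.5) marked 2 WT and 6 CKO barcodes, none a member, and none was removed. Cells were thinned without replacement to 6000 UMIs, which left out 0 members. Globin-rich cells had at least 20% globin UMIs.

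The genes named were the 6 rule markers, the scavenger receptor list, Smarcc1, Smarcc2 and Smarca4, the 12 highest and 12 lowest ratios among genes with at least 100 UMIs and seen in at least 20% of the members of the higher library, the 12 genes highest in members over other barcodes, and from each other list up to 4 abundant and 2 most changed members. The 12 highest and lowest left out ribosomal protein, mitochondrial, globin, Xist, Y-linked and Gm or Rik genes. Some genes that this rule covers are not reported here. Genes named outside it were chosen after their values were seen. The members, the 29 lists and this rule were chosen with earlier results of these data known. The splits at 15 marker UMIs per 10000 and at 50 Dlk1 UMIs were chosen after seeing the data. Software was pandas 2.3.3, numpy 2.4.6, scipy 1.17.1 and matplotlib 3.10.9 under Python 3.11.15. Summing and ratios were tested on simulated data. Another 18 settings were planned and 2 were added.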

Additional observations from a re-analysis of the deposited data

How the results depend on the processing

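No paired analysis was possible because each genotype has 1 library. Of 531 values of 28 list medians under other settings, 520 stayed within 1.5-fold of the reported value and 11 moved further. A median within 1.5-fold could still change sign. A reversal was counted only from a list median past 2-fold, which no list had, so none could be found. Globin under 1% of UMIs and called doublets left out kept the same 58 WT and 43 CKO members, so these settings changed no value. Of 624 values of 39 named gene ratios, 534 stayed within the reported interval, 87 moved outside it and 3 reversed. The reversed ratios were S100a6 at 0.625 with at least 15 marker UMIs per 10000 and 0.900 with the Dlk1-high cells also left out, and Dlk1 at 1.13 in the latter. The CKO share of members was 2.95% without members that had 3 or more UMIs of 7 blood genes, and 3.42% with at least 15 marker UMIs per 10000, with or without the Dlk1-high cells. The 125 genes at least 2-fold higher became 79 without the blood-gene members, 42 after thinning to 6000 UMIs, 66 in members with Y-linked UMIs, 323 at a minimum of 20 UMIs, 57 at 100 UMIs and 895 at 1 UMI in each library. The 207 lower genes became 105 after thinning, 132 in members with Xist, 116 in members with Y-linked UMIs, and 441, 101 and 1160 at those 3 minimums. Fewer cells or another number of tested genes enter each of these. The Smarcc1 ratio was 0.0645 in members with Xist and 0.234 in members with Y-linked UMIs; the cause was not tested. The arterial median, near 0 over all members, was 0.85 without blood-gene members, 0.91 after thinning and 1.34 in members with Y-linked UMIs. It was -0.02 over marker-dense members and -0.25 there without the Dlk1-high cells. The angiocrine median, 0.45 over members, was -0.22 at a minimum of 20 UMIs and -0.38 at 100. Depth limits genes under 50 UMIs and every share of cells.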

Other observations

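The remaining gene lists follow, with the medians of some lists described above. Over all tested genes, 2.34% were at least 2-fold higher in CKO members and 3.87% lower. Among marker-dense members these shares were 2.37% and 4.4%. The lists are short, so 1 gene past 2-fold can put a list above these shares. Of 10 haemogenic and progenitor genes, 0 were 2-fold higher or lower in CKO members, and the median log2 ratio was 0.05. Of 8 flow response genes Edn1 was 2-fold higher, with a list median of -0.13. Klf2, the shear-induced factor, stood at 393 and 296 CPM and gave 0.753 (0.655 to 0.865). Of 15 TGF-beta and BMP genes Smad4, the common mediator, was 2-fold lower at 0.424 (0.267 to 0.664), and in other barcodes it gave 0.690. The list median was -0.05. Of 6 lipid uptake genes Fabp4 was 2-fold higher, with a median of 0.04, and 7 angiocrine genes held Edn1 higher and Esm1 lower, with a median of 0.45 that was -0.02 over marker-dense members. Of 6 interferon and class I genes Ifitm3 was lower and the median was -0.35, with B2m at 0.820 (0.731 to 0.920). Metallothionein Mt1 gave 0.428 (0.326 to 0.558), and the 3 genes of its list had a median of -0.42. Of 8 integrated stress response genes the serine synthesis enzyme Phgdh was 2-fold lower at 0.485 (0.366 to 0.639), and over marker-dense members Ppp1r15a was 2-fold higher at 2.48 (1.66 to 3.80). Of 5 venous and lymphatic genes Flt4 and Emcn were 2-fold lower and the median was -0.16. The adrenomedullin receptor list (Ramp2 and Calcrl) had a median of -0.12, the BAF complex 0.02, the Notch pathway -0.13, arterial genes 0.09, heat shock genes -0.03, endothelial transcription factors -0.18, sinusoidal genes -0.19, junction genes -0.32, matrix genes -0.38 and imprinted growth genes -0.30.

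Summed markers of cell types the gate could hold, in WT then CKO members, came to 23.6 and 57.98 CPM for smooth muscle, 2.83 and 2.90 CPM for mesothelium, 476 and 2490.2 CPM for erythroid cells with globins, 58.4 and 89.9 CPM for granulocyte and monocyte genes, 252 and 336 CPM for megakaryocytes, 0.942 and 2.90 CPM for mast cells, 202 and 44.9 CPM for trophoblast (all of it Plac1) and 153 and 143 CPM for parietal endoderm.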
